A study of Mus musculus with 6 samples.

Results

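The genes described are 40 genes of the heat shock response and the unfolded protein response, taken by symbol from a table of 52405 genes. They were chosen by name: 10 cytosolic and mitochondrial chaperones, 21 chaperones, folding enzymes and sensors of the endoplasmic reticulum, and 9 genes of the integrated stress response. The table holds 41 rows with these symbols, because Ddit3 is listed under 2 identifiers, of which ENSMUSG00000116429 is at 0 in every library and was left out. RNA was sequenced from prominin-1-positive cells, bound to magnetic beads after a warm incubation of homogenized kidney cortex, of adult female C57BL/6 mice, which are labelled as proximal tubule. All animals had been ovariectomized at postnatal day 21, and none of the kidneys had been injured. The control group (Ctr, 3 libraries) was compared with mice in which the type 1 receptor of insulin-like growth factor, Igf1r, had been deleted in the proximal tubule (KO, 3 libraries). Neither the promoter that drives the deletion, nor the alleles of the controls, nor any pooling of animals is stated in the labels.

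Heat shock factors switch on cytosolic chaperones when unfolded proteins accumulate in the cytosol, and the Hsp70 and Hsp90 families then hold, fold or pass on these proteins. The unfolded protein response does the same for the endoplasmic reticulum through the sensors Ire1 (gene Ern1), Perk (gene Eif2ak3) and Atf6, which raise the chaperones of that compartment and the machinery that degrades misfolded proteins. Perk and other kinases of the initiation factor eIF2, among them Gcn2 (gene Eif2ak4), feed into the integrated stress response, in which translation slows and the transcription factor Atf4 is made. Proximal tubule cells take up and reabsorb large amounts of protein and solute, and endoplasmic reticulum stress is a well studied feature of tubular injury.

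The question was how these stress genes stand in uninjured tubule cells and whether loss of Igf1r alters them. In the KO libraries Igf1r itself was at 4.78, 7.67 and 5.08 FPKM (fragments per kilobase of transcript, scaled to the library's total) against 18.7, 15.3 and 22.7 in Ctr. This is a log2 change of -1.55 (SE 0.19, with a limma adjusted p of 0.267 and an exact two-sided permutation p of 0.1, the smallest possible for 3 against 3). All libraries had high levels of proximal tubule markers (summed FPKM of 11 genes 3780 to 4910 in Ctr and 3913 to 4436 in KO). They also held markers of other segments, with 3 thick limb genes summing to 1264 to 1789 in Ctr and 1410 to 2671 in KO. The 3 distal tubule genes summed to 494 to 586 in Ctr and 575 to 692 in KO. For 6 collecting duct genes the sums were 375 to 657 and 501 to 641. The libraries numbered 1 stood apart in both groups. Their 4 podocyte genes summed to 149.6 in Ctr and 109.9 in KO, where the other libraries lay between 1.62 and 3.36. The 6 endothelial genes summed to 136 and 111, against 11.7 to 18.9 elsewhere. None of the marker genes was at 0 in all libraries. In a mixed cell preparation, fewer cells of a type and less RNA per cell cannot be told apart.

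No member could be shown to differ between KO and Ctr. Of the 38 members with a mean FPKM of at least 1, 0 passed limma's test at an adjusted p of 0.05, where 3 of 12770 genes tested passed (0.0235%), 2 higher in KO (0.0157%) and 1 lower (0.00783%). At an unadjusted p under 0.05 stood 1 member, Edem1, against 3.51% of genes tested, and with the replicate number as a block 720 genes stood there in place of 448. For 0 members were all KO libraries above or below all Ctr libraries, against 8.59% of genes tested. The estimate was lower in KO for 22 members and higher for 16, with a lower estimate for 56.4% of genes tested. The median log2 change was -0.018 over the members and -0.019 over the genes tested. On the scale of log2(FPKM + 1), the 95% intervals of all 38 members lay within a 2-fold change in either direction, and those of 29 within 1.5-fold. The widest was that of Hspb1. This scale understates changes of low genes such as Hspb1 and Asns, whose bounds in FPKM itself would lie further out.

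**Figure D1:**
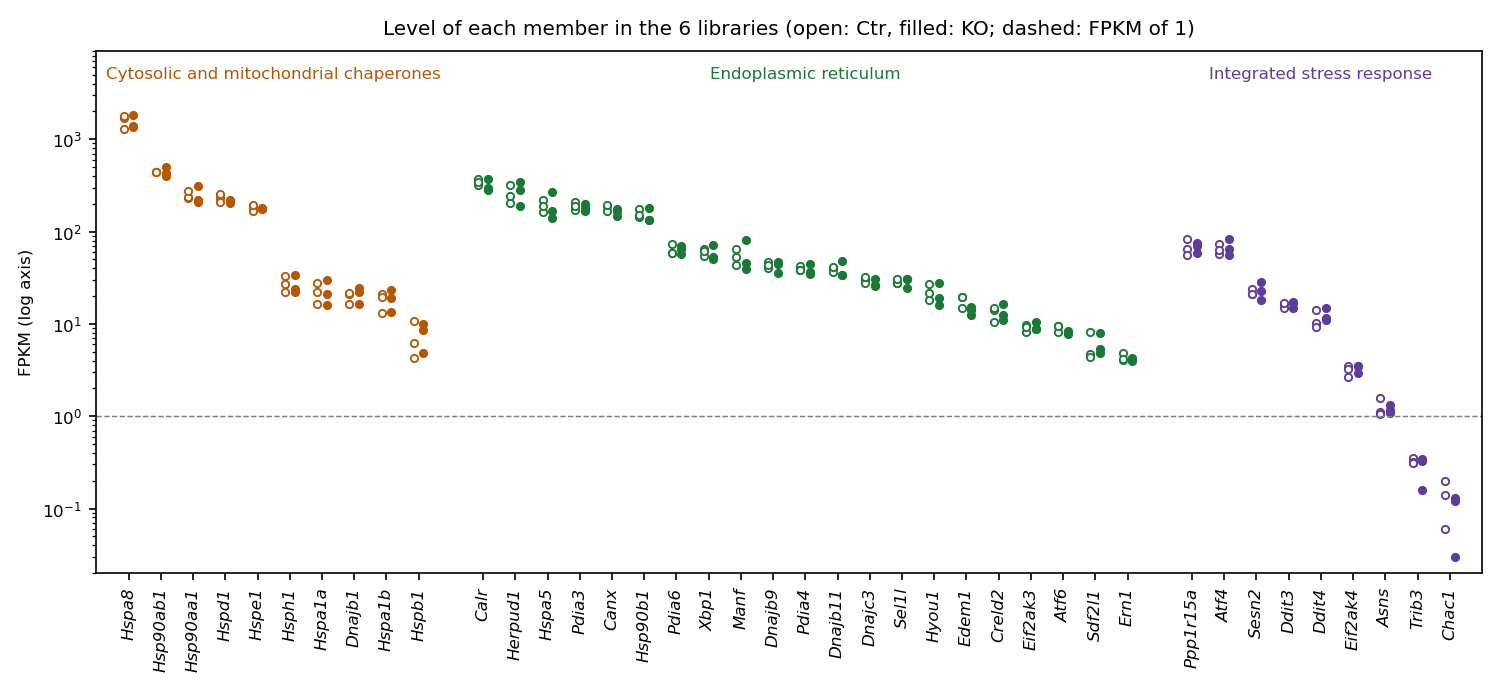
FPKM of the 40 members (log axis) in the 3 Ctr libraries (open points) and the 3 KO libraries (filled points), ordered by mean level within the 3 groups, with a dashed line at an FPKM of 1. Hspa8 lies above 1000 in every library, Trib3 and Chac1 lie below 1, and the open and filled points overlap for every gene.

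Levels per transcript length ran over 4 orders of magnitude. Averaged over the 6 libraries, 1 member lay above 1000 FPKM, 10 between 100 and 1000, 20 between 10 and 100, 7 between 1 and 10, and 2 below 1. The cytosolic and mitochondrial chaperones took 0.308 to 0.422% of the summed FPKM of all genes in a library, the endoplasmic reticulum members 0.186 to 0.265% and the integrated stress response members 0.0207 to 0.0291%. The plot of levels shows Hspa8 and Hsp90ab1, both constitutive chaperones, at the top, and Asns, Trib3 and Chac1, all targets of Atf4, at the bottom.

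The cytosolic chaperones were led by Hspa8, the constitutive Hsp70 that folds new proteins and uncoats clathrin vesicles (ENSMUSG00000015656, GRCm38 chromosome 9, 40800984 to 40810087). It ranked 39 of all genes in the table by mean level. In the order of replicates 1, 2 and 3, used for every list of values, Hspa8 was at 1692, 1289.7 and 1784 FPKM in Ctr and 1361, 1834 and 1377 in KO. The groups overlapped fully, with the highest value in KO replicate 2 and the lowest in Ctr replicate 2. The means were 1589 ± 263 and 1524 ± 269 (SD, n = 3 each), and the difference on the log2 scale was -0.060 (SE 0.16, adjusted p in limma 0.9996).

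The stress-inducible Hsp70 genes Hspa1a (ENSMUSG00000091971, GRCm38 chromosome 17, 34969190 to 34972156) and Hspa1b (ENSMUSG00000090877, 34956436 to 34959238) are near-identical copies whose start sites lie 12918 bases apart on the same strand. In the RefSeq promoters (GRCm38.p6) 247 of the 250 bases before the start were the same. The authors' division of reads between such copies is uncertain, so their sum was used. It came to 29.3, 48.6 and 41.7 FPKM in Ctr and 29.4, 53.4 and 40.5 in KO. Both libraries numbered 1 were low, and KO and Ctr libraries of the same number lay close together. The Ctr mean of 39.8 ± 9.77 and the KO mean of 41.1 ± 12.0 (SD, n = 3 each) gave an exact two-sided permutation p of 0.9. The inducible pair stood at 1.73, 3.77 and 2.34% of the Hspa8 level in Ctr and at 2.16, 2.91 and 2.94% in KO. Inducible Hsp70 was thus scarce beside the constitutive form in every library.

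Dnajb1, the Hsp40 partner that delivers clients to Hsp70, was, like the inducible pair, lowest in the libraries numbered 1. It stood at 16.3, 20.9 and 21.6 FPKM in Ctr and 16.2, 24.7 and 22.2 in KO (log2 change 0.087, SE 0.17). Hsph1, the Hsp110 that exchanges nucleotide on Hsp70, was at 26.9, 22.1 and 32.7 in Ctr and 22.2, 33.99 and 23.6 in KO. Its low libraries were those of Hspa8 (Ctr replicate 2, KO replicates 1 and 3), of which the inducible pair shared KO replicate 1.

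The cytosolic Hsp90 genes differed in how steady they were within Ctr. Hsp90ab1, the constitutive cytosolic Hsp90 that matures kinases and steroid receptors, was at 441, 441 and 438 FPKM in Ctr and 397, 499.7 and 429 in KO. Its log2 change was -3.3e-04 (95% interval -0.22 to 0.22). The inducible Hsp90aa1 was at 229.5, 236 and 273 in Ctr and 212, 314 and 218 in KO. Its level was 0.509 to 0.629 of that of Hsp90ab1 in the KO libraries and 0.520 to 0.623 in Ctr. KO replicate 2 held the highest value of both genes.

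Hspb1, a small heat shock protein that keeps unfolding proteins soluble and binds actin, had a pattern of its own. It was at 10.9, 6.23 and 4.29 FPKM in Ctr and 9.88, 8.57 and 4.81 in KO (log2 change 0.14, SE 0.34, 95% interval -0.66 to 0.93). The libraries numbered 1, which held the podocyte and endothelial transcripts given above, had the highest Hspb1 in both groups, and the part of those cells in its level was not tested.

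Hspd1 and Hspe1 encode the mitochondrial chaperonin and its lid. In GENCODE M21 they lie head to head on chromosome 1 and overlap, with starts 111 bases apart. Hspd1 (ENSMUSG00000025980) was at 228.5, 207.5 and 254 FPKM in Ctr and 205, 215 and 221 in KO. Hspe1 (ENSMUSG00000073676) was at 184, 166 and 192 in Ctr and 177, 176 and 179 in KO. The 2 genes moved together over the libraries, with a ratio of Hspd1 to Hspe1 of 1.24, 1.25 and 1.32 in Ctr and 1.16, 1.22 and 1.24 in KO. The mean ratio was 1.271 ± 0.0437 in Ctr and 1.204 ± 0.0400 in KO (SD over the 3 libraries of each), and KO was lower for each of the 3 numbers. Of 6 ratios between members computed, it was the only one whose groups did not overlap, as seen after the values were known, and the nearest values of the groups were almost equal. A processed copy of Hspd1, Hspd1-ps3, was listed at 8.43 FPKM on average, so a small share of the reads of Hspd1 may stand under another name.

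The bases before the start sites of 34 members were searched for known response elements on both strands, over 250 bases, in RefSeq promoters of GRCm38.p6. A heat shock element of 3 alternating units, GAANNTTCNNGAA, was in 0.466% of the 32851 promoters of the table. Among 7 cytosolic and mitochondrial members it was in the windows of Hspd1 and Hspe1 alone. Hspa8, Hsp90aa1 and Hsp90ab1 had no promoter to search. Only exact matches were counted, so imperfect or more distant elements of other members, among them Hspa1a and Hspa1b, would be missed. The matches of Hspd1 and Hspe1 are 1 and the same stretch of DNA before both RefSeq starts, with 2 overlapping matches on opposite strands. In GENCODE M21, where the 2 genes overlap, this stretch lies inside Hspd1. It is shown because it belongs to both chaperonin genes, read here from each gene's own strand, with the matched bases in capitals.
Hspd1 (chr1:55088044-55088091, minus strand): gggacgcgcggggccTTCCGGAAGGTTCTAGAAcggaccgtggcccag
Hspe1 (chr1:55088044-55088091, plus strand): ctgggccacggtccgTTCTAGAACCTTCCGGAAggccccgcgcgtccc

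Over the whole group of cytosolic and mitochondrial chaperones, 4 of 10 members had a higher and 6 a lower estimate in KO, and 0 passed limma's test (0 at an unadjusted p under 0.05). The median log2 change was -0.0040, with single genes between -0.10 (Hspd1) and 0.14 (Hspb1). It was 0.072 without KO replicate 1 and -0.11 without KO replicate 2. Summed, they reached 2860, 2437 and 3041 FPKM in Ctr and 2429, 3159 and 2515 in KO.

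The 5 lowest estimates of all members were those of the endoplasmic reticulum genes Edem1, Canx, Atf6, Dnajc3 and Calr. Among these 5, only the 95% interval of Edem1 did not cross 0. Edem1, which steers misfolded glycoproteins to degradation (ENSMUSG00000030104, GRCm38 chromosome 6, 108828641 to 108859356), was at 19.4, 14.7 and 19.4 FPKM in Ctr and 12.5, 15.1 and 14.1 in KO. Only Ctr replicate 2 lay within the KO range. The means were 17.8 ± 2.73 and 13.9 ± 1.31 (SD, n = 3 each). The log2 change was -0.33 (SE 0.13, 95% interval -0.64 to -0.031), with an unadjusted p of 0.035 and a limma adjusted p of 0.9996. The change was -0.20 without both libraries numbered 1.

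The lectin chaperones Canx, anchored in the membrane, and Calr, free in the lumen, bind the same glycoproteins. Canx was at 188, 168 and 192 FPKM in Ctr and 149, 177 and 166 in KO (log2 change -0.16, SE 0.091). Calr was at 371, 317 and 346 in Ctr and 281, 371 and 293 in KO (log2 change -0.14, SE 0.12). Their partner Pdia3, which forms disulphide bonds in glycoproteins, was at 208, 172 and 189 in Ctr and 182, 200.3 and 165 in KO. All overlapped between the groups, and for each the KO replicate 1 and 3 libraries lay below the Ctr mean.

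Hspa5, the luminal Hsp70 also called BiP, which holds the sensors of the response inactive (ENSMUSG00000026864, GRCm38 chromosome 2, 34771970 to 34777547), had the widest ratio within a group among the members above 100 FPKM. It was at 219.7, 161 and 191 FPKM in Ctr and 141, 268 and 167 in KO. KO replicate 2 held 1.90 times the level of KO replicate 1, and the 3 Ctr values lay between these. The means were 191 ± 29.2 and 192 ± 67.2 (SD, n = 3 each), with a log2 change of -0.032 (95% interval -0.58 to 0.52).

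Other luminal chaperones and cofactors shared the high libraries of Hspa5, but not always its lowest one. Hsp90b1, the luminal Hsp90 also called Grp94, was at 176, 143 and 151 FPKM in Ctr and 132, 181 and 134 in KO. Hyou1, an Hsp110 of the lumen, was at 27.3, 18.0 and 21.4 in Ctr and 19.2, 27.8 and 16.2 in KO. Manf, a secreted stress protein that binds Hspa5, was at 64.7, 42.9 and 52.8 in Ctr and 46.1, 81.6 and 39.8 in KO. In each of these genes, as in Hspa5, the highest libraries were KO replicate 2 and Ctr replicate 1. Sdf2l1, a cofactor of Hspa5, was at 8.14, 4.70 and 4.41 in Ctr and 5.32, 8.04 and 4.87 in KO, with the same high libraries.

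The remaining folding genes comprise other disulphide isomerases, the Hsp40 cochaperones and Creld2. Pdia6 and Pdia4, both disulphide isomerases, stayed between 57.3 and 72.5 FPKM and between 34.6 and 44.3 FPKM in all libraries. The Hsp40 cochaperones of Hspa5 had log2 changes of -0.054 for Dnajb9, -0.043 for Dnajb11 and -0.15 for Dnajc3 (SE 0.12, 0.14 and 0.097). Creld2, a stress-induced protein of the lumen, was at 14.01, 10.5 and 14.8 FPKM in Ctr and 12.6, 16.5 and 11.1 in KO.

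Herpud1, a membrane protein of the degradation complex and a sensitive target of the response, differed from the chaperones. It was at 202, 246 and 323 FPKM in Ctr and 190.5, 280.4 and 346 in KO (log2 change 0.069, SE 0.24). The libraries numbered 1 were lowest and those numbered 3 highest in both groups. Its ratio to Hspa5 ran between 0.919 in Ctr replicate 1 and 2.07 in KO replicate 3. Sel1l, the scaffold of the same complex, stayed between 24.8 and 30.9 in all libraries.

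The sensors themselves were among the less abundant members. Ern1 was at 4.07, 4.85 and 4.13 FPKM in Ctr and 4.26, 4.16 and 3.99 in KO, and Eif2ak3 at 8.27, 9.62 and 9.21 in Ctr and 8.83, 10.6 and 8.79 in KO. Atf6, whose freed fragment is itself a transcription factor, was at 9.48, 8.27 and 9.40 in Ctr and 7.74, 8.40 and 7.94 in KO (log2 change -0.15, SE 0.089, limma adjusted p = 0.9996). For Atf6 the groups overlapped through Ctr replicate 2 and KO replicate 2. Xbp1, the transcription factor that Ire1 activates by splicing, was at 65.5, 53.8 and 61.5 in Ctr and 53.2, 72.0 and 50.1 in KO. The table gives 1 value a gene, so the spliced and unspliced forms cannot be told apart, nor can protein activity be read from it.

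What 7 of the 18 endoplasmic reticulum members with a promoter shared, apart from their names, was an exact endoplasmic reticulum stress element, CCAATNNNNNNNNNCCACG, which is bound by Atf6 together with the factor NF-Y. It was in 0.113% of all promoters of the table. The related element II, ATTGGNCCACG, was in 0.0304% and among members in Herpud1 alone. The matches on the gene's own strand are shown, as is the second match of Hsp90b1 on the other strand, with the flanking 15 bases because they belong to folding and degradation genes whose levels are given above. Capitals mark the element, and Herpud1 carries in addition a match on the other strand to the element described with the integrated stress response.
Hspa5 (chr2:34772010-34772058, plus strand): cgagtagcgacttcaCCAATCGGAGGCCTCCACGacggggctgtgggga
Hsp90b1 (chr10:86705518-86705671, minus strand): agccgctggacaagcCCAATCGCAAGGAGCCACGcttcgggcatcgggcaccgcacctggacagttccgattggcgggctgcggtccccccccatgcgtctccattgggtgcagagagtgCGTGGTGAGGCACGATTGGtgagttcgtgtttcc
Canx (chr11:50325785-50325833, minus strand): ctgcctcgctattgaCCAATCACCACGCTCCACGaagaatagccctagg
Pdia6 (chr12:17266476-17266524, plus strand): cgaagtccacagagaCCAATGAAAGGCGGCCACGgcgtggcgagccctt
Dnajc3 (chr14:118937812-118937860, plus strand): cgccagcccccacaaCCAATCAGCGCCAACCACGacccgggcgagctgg
Herpud1 (chr8:94386302-94386402, plus strand): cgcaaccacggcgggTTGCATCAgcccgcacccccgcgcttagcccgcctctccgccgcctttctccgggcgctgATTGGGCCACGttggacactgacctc

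Calr and Creld2 carried the element on the other strand, and Hsp90b1 had 1 match on each strand. All 7 members with the element lay above their own mean in Ctr replicate 1 and KO replicate 2 and below it in Ctr replicate 2 and KO replicate 3. Of all 21 endoplasmic reticulum members, 16 lay above their own mean in Ctr replicate 1 and 18 in KO replicate 2, against 53.1 and 53.6% of genes tested. Only 3 of the 21 did so in Ctr replicate 2 and 3 in KO replicate 3, against 50.9 and 41.5%. The pattern was thus not particular to genes with the element. The 7 genes differed in the size of the swing. The ratio of the highest to the lowest library was 1.90 for Hspa5, 1.57 for Creld2, 1.37 for Hsp90b1, 1.32 for Calr, 1.29 for Canx and 1.27 for both Pdia6 and Dnajc3. A match is a description of the letters, and no binding was measured. Positions count from the RefSeq start, which need not be the GENCODE M21 start. It lies inside the GENCODE M21 gene for Hspa5, Hsp90b1, Pdia6 and, by very little, Calr. The same holds for Hspd1, Hspe1, Asns and Chac1, whose matches to other elements are also shown.

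**Figure D2:**
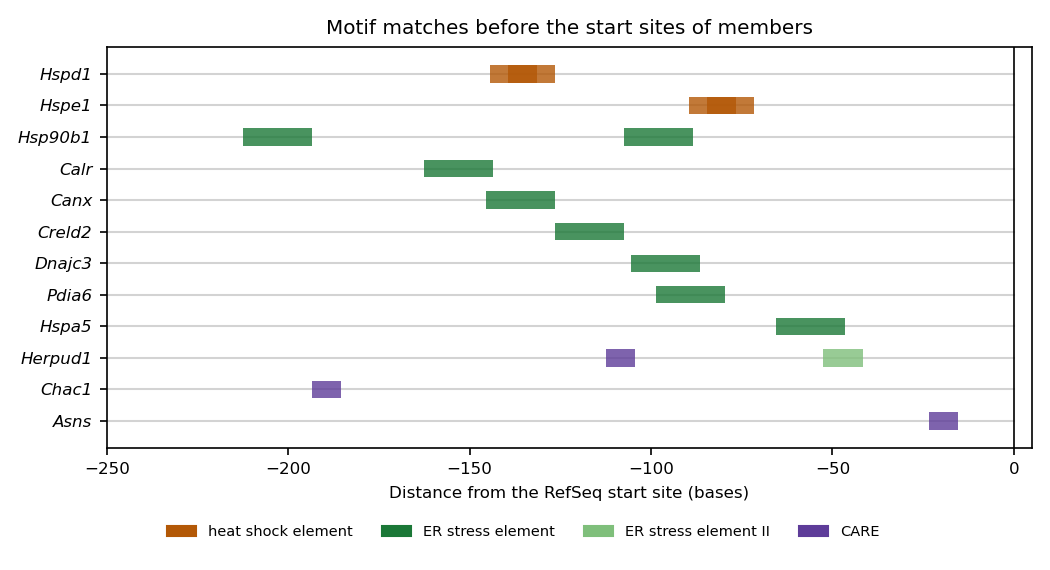
Positions of the motif matches in the 250 bases before the RefSeq start site of the 12 members with any match, by distance from the start in bases. Endoplasmic reticulum stress elements lie between 212 and 47 bases before the start, element II of Herpud1 between 52 and 42, and the 2 overlapping heat shock elements of Hspd1 and Hspe1 are the same stretch seen from either gene.

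Over the 21 endoplasmic reticulum members, 6 had a higher and 15 a lower estimate in KO, and 0 passed limma's test (1 at an unadjusted p under 0.05, Edem1). The median log2 change was -0.054. It was 0.015 without KO replicate 3, 0.055 without both libraries numbered 1 and -0.18 without KO replicate 2, so its sign rested on single libraries. Summed, they reached 1840.3, 1609 and 1833 FPKM in Ctr and 1468, 1992 and 1655 in KO.

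**Figure D3:**
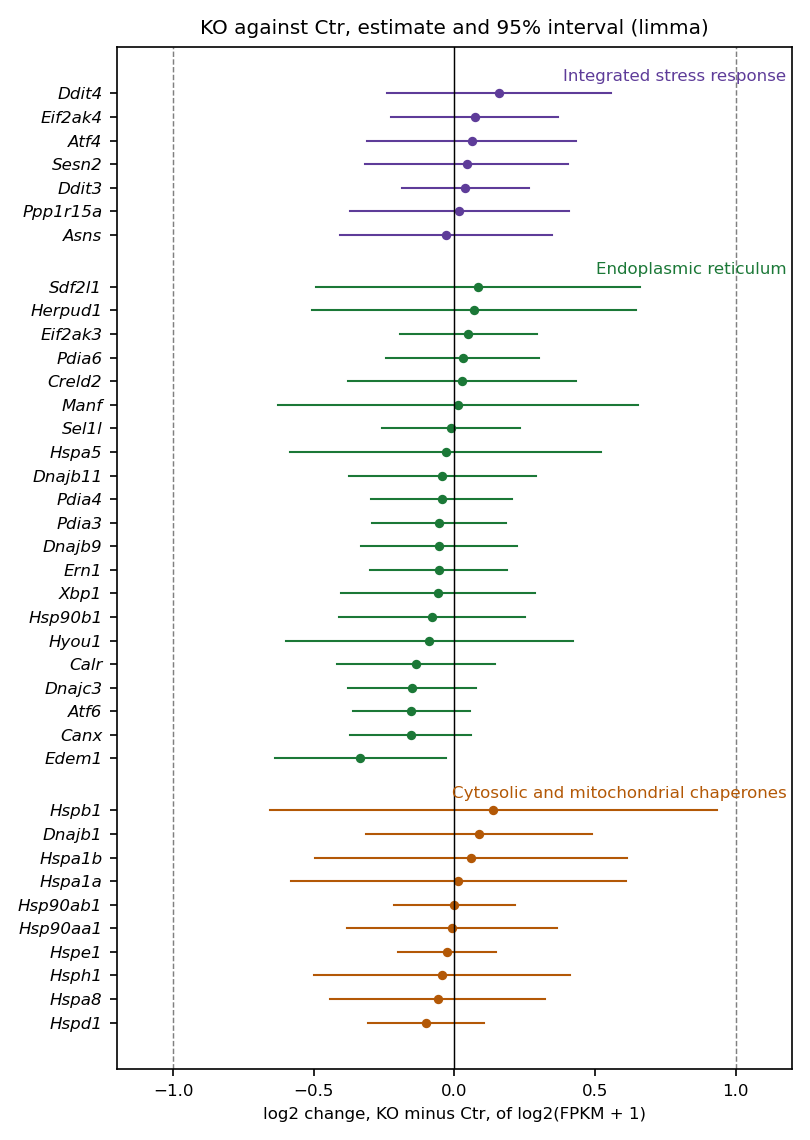
Log2 change, KO minus Ctr, with its 95% interval from limma for the 38 members tested, grouped by role, with dashed lines at a 2-fold change. Edem1 is the only member whose interval does not cross 0, and no interval reaches a dashed line.

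Among the integrated stress response members no shift between the groups was detectable. Atf4, its central transcription factor, whose protein is controlled mainly by translation (ENSMUSG00000042406, GRCm38 chromosome 15, 80255184 to 80257541), was at 56.6, 73.6 and 63.4 FPKM in Ctr and 55.9, 83.0 and 64.8 in KO. Its means were 64.5 ± 8.51 and 67.9 ± 13.8 (SD, n = 3 each), with a log2 change of 0.061 (SE 0.16). Ddit3, the Atf4 target also called Chop that promotes cell death (ENSMUSG00000025408), was at 16.2, 14.7 and 16.9 in Ctr and 14.7, 17.0 and 17.5 in KO. Ddit3 overlaps Mars, a tRNA synthetase gene on the other strand at 19.5 FPKM on average, and use of strand in the counting is not given in the sources used here.

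Ppp1r15a, the phosphatase subunit that ends the response by restoring eIF2, was the most abundant of the group. It was at 64.2, 84.0 and 55.6 FPKM in Ctr and 58.1, 75.9 and 70.5 in KO. Sesn2, a stress-induced inhibitor of mTORC1, was at 20.8, 24.1 and 21.3 in Ctr and 18.3, 22.8 and 28.2 in KO. Ddit4, another inhibitor of mTORC1, was at 10.3, 14.02 and 9.33 in Ctr and 11.6, 15.0 and 11.1 in KO. Its log2 change of 0.16 (SE 0.17, limma adjusted p = 0.9996) was the highest of the 38 members, and the groups overlapped.

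The enzyme genes Asns and Chac1 and the feedback gene Trib3 were scarce. Asns, which makes asparagine, was at 1.10, 1.06 and 1.59 FPKM in Ctr and 1.33, 1.16 and 1.09 in KO. Trib3, a pseudokinase that restrains Atf4, was at 0.35, 0.32 and 0.31 in Ctr and 0.34, 0.33 and 0.16 in KO. Chac1, which degrades glutathione, was at 0.20, 0.06 and 0.14 in Ctr and 0.13, 0.12 and 0.03 in KO. At the depth of these libraries the Chac1 values stand for only a few fragments, so a difference was not detectable, and neither Trib3 nor Chac1 entered the test. Eif2ak4, the amino acid sensor Gcn2, was at 2.67, 3.47 and 3.21 in Ctr and 2.94, 3.49 and 3.54 in KO.

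The element that Atf4 binds with C/EBP proteins, TGATGNAA, was matched in 2 of the 9 integrated stress response members, Asns and Chac1. It was in 3.45% of all promoters of the table. Trib3, also scarce, and Ddit3 had no exact match. The match is shown for Asns, on the gene's own strand, and for Chac1, on the other strand, with the matched bases in capitals.
Asns (chr6:7693210-7693247, minus strand): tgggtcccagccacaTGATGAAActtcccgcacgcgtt
Chac1 (chr2:119351034-119351071, plus strand): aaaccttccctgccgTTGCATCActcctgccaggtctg

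Of the 7 integrated stress response members tested, 6 had a higher and 1 a lower estimate, and 0 passed limma's test (0 at an unadjusted p under 0.05). The median log2 change was 0.044, and it was -0.0078 without Ctr replicate 1. All 9 together came to 172, 215 and 172 FPKM in Ctr and 163, 219 and 197 in KO. The 17 immediate early genes that dissociation induces, such as Fos and Jun, summed to 2501, 3218 and 2656 in Ctr and 1967, 3570 and 3035 in KO. In both sums KO replicate 1 was lowest and KO replicate 2 highest, and the part of dissociation in the stress gene levels was not tested.

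**Figure D4:**
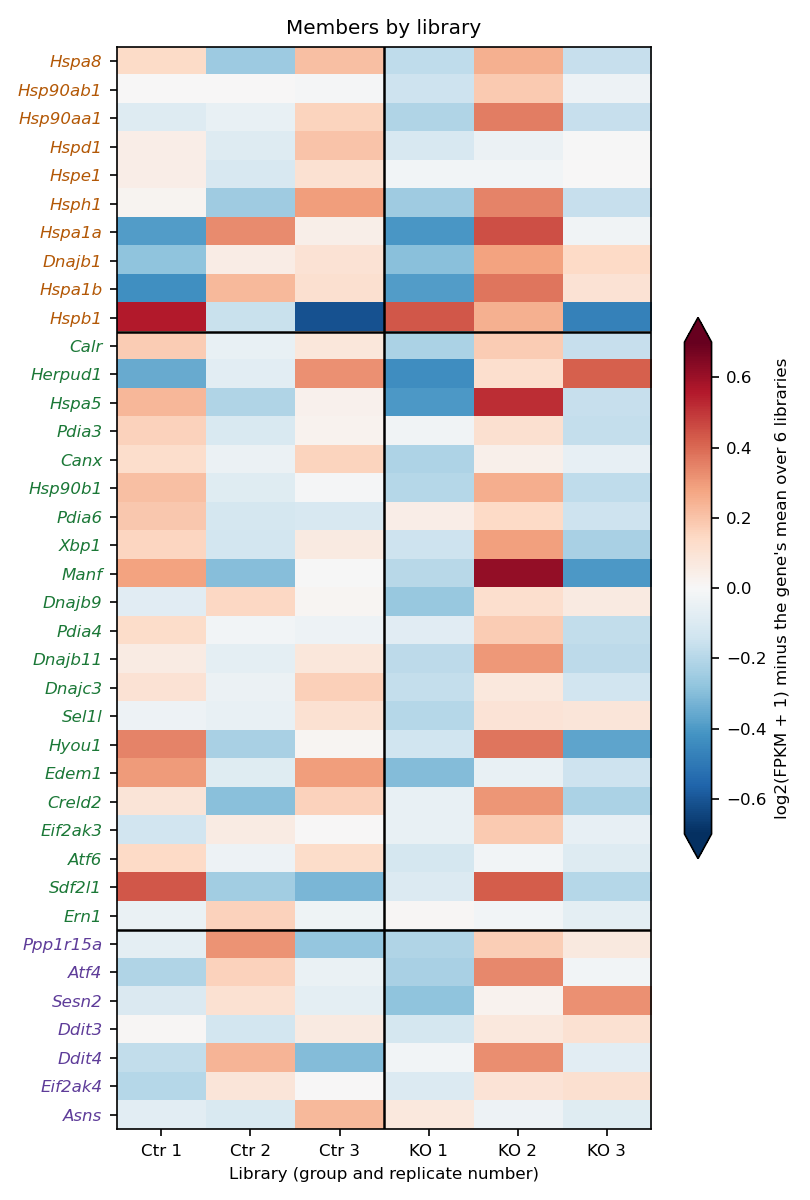
Deviation of log2(FPKM + 1) from each gene's mean over the 6 libraries for the 38 members tested (rows, grouped by role and ordered by level) in the Ctr and KO libraries (columns). Red marks a library above the gene's mean: most rows are red in KO replicate 2 and blue in KO replicate 1.

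As a set, the members differed between libraries of the same group, most between KO replicates 1 and 2. KO replicate 2 was the highest library for 18 of 38 members, where it was highest for 17.5% of genes tested, and the lowest for 0. KO replicate 1 was the lowest for 18 members, against 22.1% of genes tested, and the highest for 0. For 32 members KO replicate 2 lay above the gene's own mean and for 4 KO replicate 1 did, against 53.6 and 47.4% of genes tested. As a description over the 38 members, the median deviation came to 0.045, -0.062 and 0.050 in the Ctr libraries and -0.17, 0.18 and -0.087 in the KO libraries. Over all genes tested it lay between -0.026 and 0.011.

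Comparing libraries of the same number turned the direction from 1 number to the next. KO lay below Ctr in 32 of 38 members for number 1 (median log2 difference -0.16), above it in 34 for number 2 (0.19) and below it in 27 for number 3 (-0.12). Over all genes tested, KO was lower in 54.7, 47.7 and 56.2%. The endoplasmic reticulum members swung most, with medians of -0.26, 0.22 and -0.19, while the integrated stress response members gave -0.018, 0.068 and 0.11. In the same direction for all 3 numbers stood 2 members, Ddit4 and Eif2ak4, both higher in KO, and 0 were lower in all 3. Of the genes tested 11.6% were higher and 15.3% lower in all 3. Among the further genes of the pathways described last, KO was lower for number 1 in 57.4% of the cytosolic and mitochondrial, 65.5% of the endoplasmic reticulum and 47.8% of the integrated stress response genes. For number 2 KO was higher in 79.6, 67.2 and 69.6% of the same lists, and for number 3 it was lower in 75.9, 74.1 and 69.6%. For number 3 the further integrated stress response genes thus lay mostly lower in KO, whereas 6 of the 7 members lay higher.

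**Figure D5:**
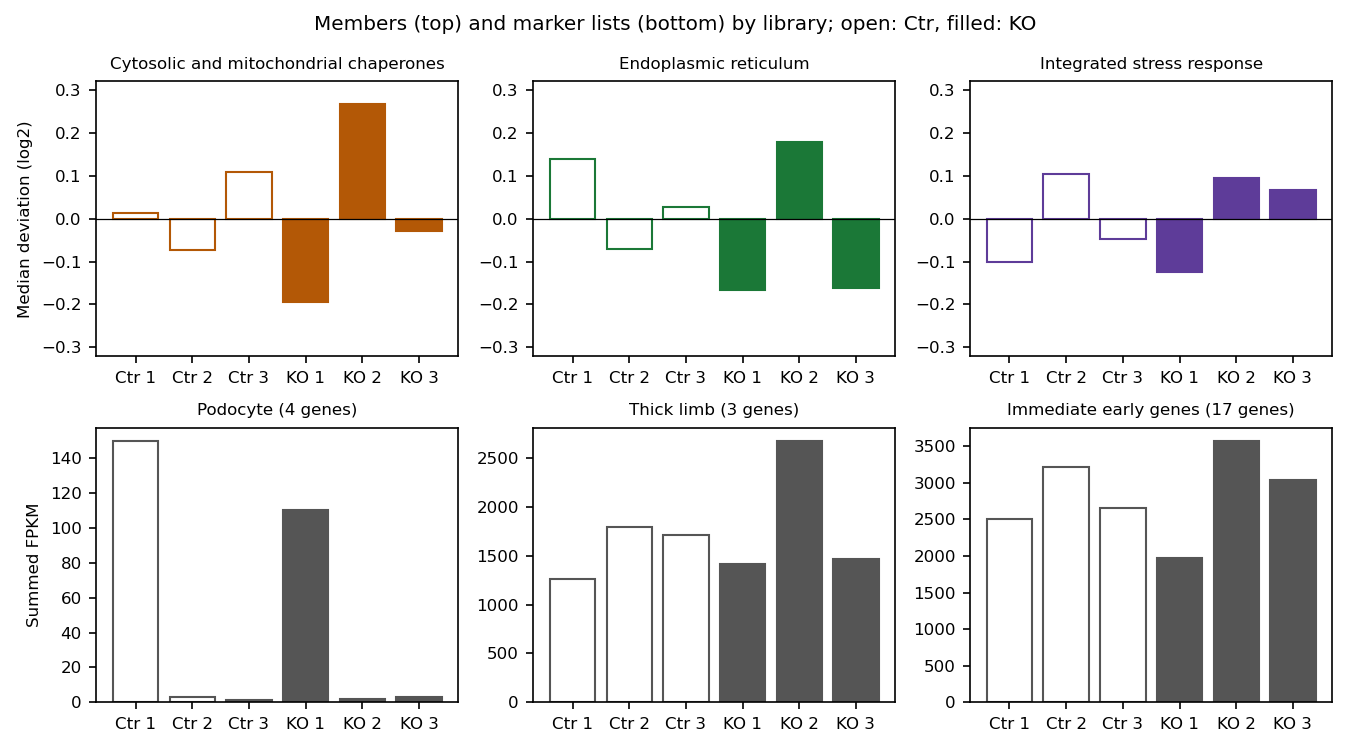
Top row, median deviation (log2) of the tested members of each of the 3 groups in every library. Bottom row, summed FPKM of the podocyte, thick limb and immediate early gene lists in the same libraries (open bars Ctr, filled bars KO). KO replicate 2 has the highest chaperone medians and the highest thick limb (2671) and immediate early (3570) sums, while the podocyte sum is high only in the libraries numbered 1.

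The 3 thick limb genes, among them Umod, summed to 1264, 1789 and 1708 FPKM in Ctr and 1410, 2671 and 1470 in KO. For the 3 distal tubule genes the sums were 561, 586 and 494 in Ctr and 641, 692 and 575 in KO. The library with the highest chaperone levels, KO replicate 2, thus also held the highest thick limb, distal tubule and immediate early sums. Of the distal tubule genes only Slc12a3 was highest there. KO replicate 1 had the lowest immediate early sum and the lowest median deviations of cytosolic and mitochondrial (-0.19) and endoplasmic reticulum members (-0.17). Ctr replicate 2 had the next highest thick limb and immediate early sums, yet median deviations of -0.073 and -0.071. Ctr replicate 1 had the lowest thick limb sum, yet an endoplasmic reticulum median of 0.14. The part of these other genes in the chaperone levels was not tested. Mitochondrially encoded genes took 22.2, 24.1 and 20.0% of the summed FPKM in Ctr and 24.4, 23.3 and 23.4% in KO, and did not set KO replicate 2 apart.

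Beyond the members, 158 of 167 further genes of the 3 pathways were tested, and 0 passed limma's test (1 at an unadjusted p under 0.05). Among 54 other cytosolic and mitochondrial chaperones, 25 had a higher and 29 a lower estimate (median log2 change -0.0073). The most abundant were the mitochondrial Hsp70 Hspa9 (280, 259 and 302 FPKM in Ctr, 274, 274 and 287 in KO) and the prefoldin subunit Pfdn5, with a log2 change of 0.12 (SE 0.083). The smallest unadjusted p belonged to Fkbp5, a glucocorticoid-induced cochaperone of Hsp90 (log2 change -0.20, SE 0.12). It was followed by the mitochondrial protease subunit Clpx (-0.11, SE 0.066) and the small heat shock protein Cryab (0.30, SE 0.20). The heat shock factors Hsf1 and Hsf2 had log2 changes of 0.013 (SE 0.14) and -0.11 (SE 0.12).

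Among 58 other endoplasmic reticulum genes tested, 19 had a higher and 39 a lower estimate (median log2 change -0.025). The most abundant were Tmbim6, an inhibitor of cell death in the reticulum membrane (-0.095, SE 0.066), and the disulphide isomerase P4hb (0.028, SE 0.070). The cargo receptor Tmed2 was at 106, 109.5 and 112 FPKM in Ctr and 97.5, 103 and 98.5 in KO, so that the groups did not overlap (log2 change -0.13, SE 0.063, limma adjusted p = 0.9996). The oxidase Ero1lb had a log2 change of -0.18 (SE 0.11). The translocon subunit Sec61g was listed at 0.20, 0.73 and 0.41 in Ctr and 0.27, 3.12 and 3.17 in KO (log2 change 0.97, SE 0.46). Groups did not overlap for 3 of the 58 genes, against the 8.59% given above, namely Tmed2 and, named after their values were seen, Ssr3 and Spcs3.

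Among 46 other integrated stress response genes tested, 21 had a higher and 25 a lower estimate (median log2 change -0.016). The leucyl tRNA synthetase Lars was the 1 gene with an unadjusted p under 0.05, at 13.8, 13.8 and 13.6 FPKM in Ctr and 17.5, 15.2 and 15.8 in KO. The log2 change came to 0.22 (SE 0.079, limma unadjusted p = 0.0265, adjusted p = 0.9996) and its groups did not overlap. The stress cytokine Gdf15 had a log2 change of 0.37 (SE 0.20) and the serine synthesis enzyme Psat1 one of -0.30 (SE 0.16). Atf3, both a target of Atf4 and an immediate early gene, was at 84.9, 141 and 155 in Ctr and 52.9, 203 and 158 in KO. The amino acid transporter subunit Slc3a2 was at 234, 146 and 209 in Ctr and 241, 153 and 194 in KO, with both libraries numbered 2 low.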

How the data were processed

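RNA-seq of 3 Ctr and 3 KO libraries was analysed from 1 table of FPKM values deposited by the authors, with 2 decimals and 1 column a library. Per the submitters' processing notes, which state no roles, the tools included STAR 2.6.0c, RSEM and DESeq2 1.28.1. Build, annotation and strand setting: not given in the sources used here. The kit kept the strand, per the labels' protocols. FPKM scales with the total of its library. The files give no read counts. Steps of low values in genes with 1 transcript put the depth at roughly 19900000 to 25600000 fragments, which limits genes far below 1 FPKM. The absolute depth depends on the fragment length assumed and may be off by about 2-fold.

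Values were used as log2(FPKM + 1), a scale that understates changes of low genes. The test covered 12770 genes, those averaging an FPKM of 1 or more, and used limma 3.58.1 in R 4.3.3 (intensity trend, two-sided, Benjamini-Hochberg adjustment over all genes tested, threshold 0.05), checked on simulated data. The exact permutation test (scipy 1.17.1) was run on the sum of Hspa1a and Hspa1b and on Igf1r. The other sums were not tested. The labels call the libraries biological replicates. Gene identifiers gave coordinates in GENCODE M21 (GRCm38) for 99.5% of the table, and promoters came from RefSeq (GRCm38.p6, 34 of 40 members matched). Of the members, 6 overlap another gene with a mean FPKM of at least 1, namely Hspd1, Hspe1, Hsp90b1, Manf, Pdia6 and Ddit3.

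Same-numbered Ctr and KO libraries deviated together from their group means (correlations over genes of 0.63, 0.29 and 0.37 for numbers 1, 2 and 3). On that ground, which is not in the labels, a number was read as a possible pair. Ctr replicate 3 and KO replicate 2 also correlated, by 0.30, as closely as the libraries numbered 2, so the pairing is not established. The fit with this replicate block was an alternative, and the main fit was unpaired. Other alternatives were 2 other pseudocounts, 2 other filters, 3 other scalings, limma without the trend, and each library or both numbered 1 left out. All members are named, with up to 2 of the most abundant and 3 of the smallest p among the other genes of each pathway. Tmed2 and Lars fall under that rule, and Hsf1 and Hsf2 were added for their role. The members and lists were chosen with earlier results of these data known.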

Additional observations from a re-analysis of the deposited data

How the results depend on the processing

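The count of members past the threshold was 0 in limma under every alternative run, with 0 to 3 members at an unadjusted p under 0.05 and a smallest adjusted p of 0.878, that of Edem1 with the replicate block. The count for the further pathway genes was also 0 throughout, with 0 to 5 genes at an unadjusted p under 0.05. The replicate block changed no call among members or further pathway genes, and it left every log2 change as it was. The log2 change of Edem1 ran from -0.46 to -0.27 with single libraries left out. Over the 605 member values under the alternatives, 0 moved by more than the SD between replicates, pooled over the groups. This 0 is no measure of stability, because leaving out 1 of 3 libraries cannot move an estimate that far. The other filters, the block and limma without the trend leave each estimate as it was by design. Of the 605 values 85 changed sign, with 8 to 15 in each setting that left out libraries and 0 to 3 in each other setting. The group medians without single libraries ran from -0.11 to 0.072 for the cytosolic and mitochondrial chaperones, -0.18 to 0.015 for the endoplasmic reticulum and -0.0078 to 0.14 for the integrated stress response. The median of the cytosolic and mitochondrial chaperones was 0.0091 with median-ratio rescaling. The log2 difference of the Hspa1a and Hspa1b sum was 0.035 and ran from -0.18 to 0.25 without single libraries. Over all genes, 3 passed, against 1 at a mean FPKM of at least 5, 6 without both libraries numbered 1 and 0 to 4 without single libraries, while 4 passed with the replicate block. Precision is limited by 3 libraries a group, with a median half-width of the 95% interval of 0.34 (log2) over the members.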
